A study of Rattus norvegicus with 48 samples.

Results

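The mitochondrial genome encodes a small set of core proteins of the respiratory chain, and 10 of their genes are described here. They are ND1, ND2, ND3, ND4, ND4L, ND5 and ND6, which encode membrane subunits of complex I (NADH dehydrogenase), and COX1, COX2 and COX3, which encode the core subunits of complex IV (cytochrome c oxidase). They were chosen as the entries of the deposited count table whose gene name was exactly one of these names, which gave 10 of 32883 entries. All 10 passed the filter on low counts, as did 15580 genes in all. They were selected on a result of these data: the measured values behind the choice are those of A2a neurons on day 40 against day 1 after cocaine, where ND4 alone among them was higher. For that reason, every value of these genes that holds the A2a day 40 libraries is given as a description, with no p, and the count of calls in that comparison is repeated only as what fixed the choice.

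Complex I passes electrons from NADH to ubiquinone and complex IV passes them to oxygen, and both pump protons for ATP synthesis, on which neurons depend heavily. The mitochondrial genome is transcribed as long precursors from each strand, which are cut into the separate messengers. ND4L and ND4 stay joined on a single messenger with overlapping reading frames, and ND6 is the only one of the 10 encoded on the light strand. Mitochondrial messengers are translated inside the organelle by mitochondrial ribosomes, whereas the tag used in translating ribosome affinity purification (TRAP) sits on cytosolic ribosomes. How these transcripts came to be in the pull-down was not tested.

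RNA bound to ribosomes came from punches of the nucleus accumbens, taken from adult male and female rats after 10 sessions of cocaine or saline self-administration. Per the labels, the pull-down used antibodies to green fluorescent protein in 48 brains, so each library is taken as a separate animal. D1:Cre rats served to capture D1 medium spiny neurons and A2a:Cre rats to capture A2a (D2) medium spiny neurons, the 2 main projection neuron types of this region. In each genotype, 8 rats had taken saline and were killed on day 1 after the last session, 8 had taken cocaine and were killed on day 1, and 8 had taken cocaine and were killed on day 40. No saline group at day 40 was analysed here, so day 40 against saline differs in drug and in day. The sex of each library is not given in the sources used here, and the neuron types come from different rat lines, so line and neuron type cannot be told apart.

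Libraries held between 5.3 and 55.1 M counts each (M for mega), 47 of them 24.5 M or more. The lowest was A2a cocaine day 1 replicate 7. The labels were checked against defining markers: 6 of 6 tested D1 markers were higher and 7 of 7 A2a markers were lower in D1 than in A2a libraries, on saline day 1 and on cocaine day 1 alike (edgeR, adjusted p under 0.05). Drd2, the dopamine D2 receptor gene, had a median of 92.4 CPM (TMM-scaled counts per M of library) in D1 saline libraries and 626 CPM in A2a saline libraries. This marker of the other neuron type was thus lower in D1 libraries and not absent. Depletion relative to the tissue was not tested. Markers of astrocytes, microglia, oligodendrocytes and endothelial cells were present in every group, with no measured marker at 0 throughout a group. Of 8 listed endothelial markers, 6 were measured. A number in the middle of each library's description, whose meaning is not given, was 85 in all D1 day 40 libraries, 88 in all A2a day 40 libraries and 89, 91 or 92 in the day 1 libraries, so the number and day 40 cannot be told apart.

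The 10 transcripts together made up a small and variable share of the counts, lower in D1 than in A2a libraries. Their summed level in D1 saline libraries had a lowest value of 6047, a median of 9850.3 and a highest value of 14183 CPM. In A2a saline libraries the corresponding values were 13726, 15688 and 21893 CPM. The ranges of the saline groups met only at their edges, since a single D1 library lay above the lowest A2a library. In bulk pull-downs of this kind, fewer cells of a type and less RNA per cell cannot be told apart.

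After cocaine, on day 1, the summed level ran from 8284 through a median of 11164 to 18737 CPM in D1 libraries. In A2a libraries of that day it ran from 12620.2 through 14879 to 24574 CPM. On cocaine day 40, the D1 libraries ran from 7705 through 12538 to 19575 CPM and the A2a libraries from 14092 through 16546 to 19529 CPM. By group mean, the order was D1 saline, D1 cocaine day 1, D1 cocaine day 40, A2a cocaine day 1, A2a saline and A2a cocaine day 40, from 9462 to 16477 CPM, and every pair of neighbours in this order overlapped. Together with ATP6, ATP8 and CYTB, the other mitochondrially encoded protein genes, they took between 0.843% and 3.42% of a library's counts.

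**Figure D1:**
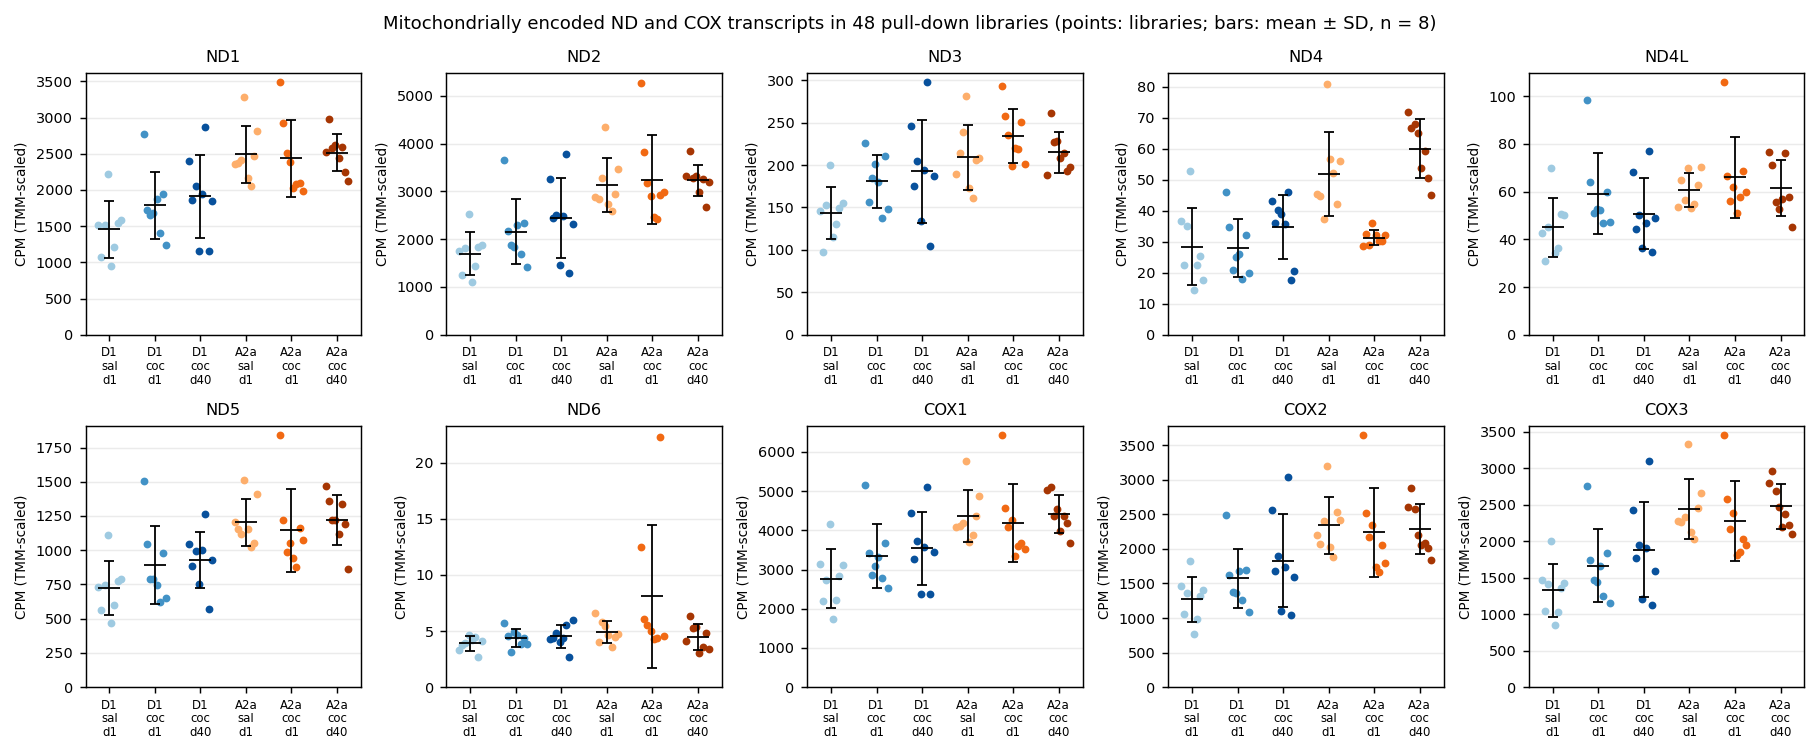
Level of each of the 10 transcripts in the 48 pull-down libraries, in TMM-scaled CPM on linear axes that start at 0, with 1 point per library and the mean ± SD of 8 libraries per group; sal is saline, coc cocaine, and d1 and d40 the day after the last session. Most panels repeat the same shape, with D1 groups below A2a groups, while in the ND4 panel the A2a cocaine day 1 libraries sit between 28.5 and 36 CPM, below all 16 other A2a libraries.

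The transcripts differed widely in abundance, from ND6 at a mean of 5.05 CPM over all libraries to COX1 at 3772 CPM. Gene lengths were not given in the sources used here, so levels are not compared between genes per length. ND4 was counted at a mean of 39.1 CPM and ND4L at 57.2 CPM, although both lie on the same messenger and the ND4 reading frame is the longer. The mean of ND5, a further large complex I subunit, was 1019 CPM. ND4 rested on 158 to 4083 counts per library and ND6 on 92 to 348. Reads of nuclear copies of mitochondrial genes, and reads of ND5 and ND6, which overlap on opposite strands, cannot be separated with what the sources used here state, so the counts of these genes are uncertain.

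Across libraries, most of the 10 transcripts rose and fell together. After removal of the group means, ND1, ND2, COX1, COX2 and COX3 correlated with each other at Pearson r of 0.95 to 0.98 over the 48 libraries, which share their scaling to a library total. Against the sum of the other members, r was 0.91 for ND5, 0.90 for ND4L and 0.86 for ND3. It was 0.67 for ND4 and 0.40 for ND6, the 2 members with the fewest counts. These values describe the libraries and carry no test.

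Among all other named genes with a mean log2 CPM of at least 3, those most like the summed level by the same measure were CYTB and ATP6 (both r = 0.99), ATP8 (r = 0.86), Slc4a3 (r = 0.64) and LOC690035 (r = 0.63). CYTB encodes cytochrome b of complex III, and ATP6 and ATP8 encode subunits of the ATP synthase. The genes most like ND4 were CYTB (r = 0.66), ATP6 (r = 0.63), Ifnar1 (r = 0.58), Crtac1 (r = 0.56) and Srsf4 (r = 0.56). The other mitochondrially encoded genes thus headed both lists, but stood closer to the sum than to ND4.

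The first comparison set D1 against A2a neurons in saline animals. Mitochondrially encoded complex I and complex IV transcripts were lower in D1 libraries: 8 of the 10 passed the test, all of them lower (edgeR quasi-likelihood test, Benjamini-Hochberg adjusted p under 0.05 over all 15580 genes), against 8.13% of all genes called in either direction and 4.01% called lower. All 10 lay below 0, with a median log2 difference of -0.76, while the median over all genes tested was 0.0042.

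Among complex IV subunits, COX3 (ENSRNOG00000030700) had a lowest value of 845, a median of 1386 and a highest of 2008 CPM in D1 saline libraries, and 2032, 2306 and 3339 CPM in A2a saline libraries. COX2 (ENSRNOG00000030371), which holds the copper site that receives electrons from cytochrome c, had 769, 1338 and 1822 CPM in D1 and 1890, 2305 and 3206 CPM in A2a libraries. All 8 D1 libraries lay below all 8 A2a libraries for both genes. The log2 difference was -0.88 ± 0.17 (SE, n = 8 against 8, edgeR adjusted p = 0.00042) for COX3 and -0.88 ± 0.18 (edgeR adjusted p = 0.000781) for COX2. COX1 (ENSRNOG00000034234), the catalytic subunit, ran from 1749 through 2778 to 4169 CPM in D1 and from 3695 through 4155 to 5765 CPM in A2a libraries, with 7 of 8 D1 libraries below all A2a libraries, and differed by -0.66 ± 0.15 (edgeR adjusted p = 0.00253).

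Among complex I subunits, ND2 (ENSRNOG00000031033) ran from 1096 through 1785 to 2520 CPM in D1 saline libraries and from 2583 through 2907 to 4349 CPM in A2a saline libraries, again without overlap. Its log2 difference was -0.88 ± 0.18 (edgeR adjusted p = 0.000755). COX2, COX3 and ND2 were the 3 members with no overlap, and 1.16% of all genes had every D1 saline library below every A2a one. ND1 (ENSRNOG00000030644) differed by -0.78 ± 0.16 (edgeR adjusted p = 0.000693), ND5 (ENSRNOG00000029971) by -0.73 ± 0.16 (edgeR adjusted p = 0.00171) and ND3 (ENSRNOG00000033615) by -0.54 ± 0.14 (edgeR adjusted p = 0.00941), each with 7 of 8 D1 libraries below all 8 A2a libraries.

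The remaining complex I genes were the least abundant ones. ND4 (ENSRNOG00000029707) had a lowest value of 14.6, a median of 24 and a highest of 52.9 CPM in D1 saline libraries, and 37.4, 48.7 and 81 CPM in A2a saline libraries. It differed by -0.87 ± 0.20 (edgeR adjusted p = 0.00317), with a single D1 library inside the A2a range. ND4L (ENSRNOG00000031053) ran from 30.7 through 44 to 70 CPM and from 53.2 through 59.5 to 70.4 CPM, and its difference of -0.43 ± 0.16 did not pass (edgeR adjusted p = 0.101). ND6 (ENSRNOG00000029042) ran from 2.67 through 3.99 to 4.68 CPM and from 3.6 through 4.71 to 6.57 CPM, and its difference of -0.34 ± 0.23 did not pass either (edgeR adjusted p = 0.451). The groups overlapped widely for ND6, with 2 of 8 D1 libraries below all A2a libraries.

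The 3 other mitochondrially encoded genes were counted separately. ATP6 (-0.91 ± 0.18, edgeR adjusted p = 0.000576) and CYTB (-0.88 ± 0.18, edgeR adjusted p = 0.000735) were lower in D1 saline libraries without overlap, and ATP8 did not pass (-0.53 ± 0.23, edgeR adjusted p = 0.172). Within the libraries of each middle number, all 10 members also lay below 0, with medians of -0.74 (number 89, 2 D1 against 4 A2a libraries), -1.25 (number 91, 2 against 3) and -0.73 (number 92, 4 against 1). No marker of astrocytes, microglia, oligodendrocytes or endothelial cells was called in this comparison, with summed oligodendrocyte markers at 3052 to 6692 CPM in D1 and 3680.1 to 5564 CPM in A2a saline libraries. Summed microglia markers ran from 218 to 584 and from 225 to 619.7 CPM, astrocyte markers from 1315 to 2707 and from 1401 to 2234 CPM, and endothelial markers from 17.5 to 56.7 and from 24.4 to 39.8 CPM.

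Complexes I and IV also hold many subunits encoded in the nucleus, whose messengers are translated in the cytosol. Of 45 listed nuclear subunits, 33 of complex I and 12 of complex IV, 2 were called, both lower in D1 saline libraries, against the same 8.13% of all genes. Their log2 differences ran from -0.21 to 0.24 with a median of -0.06, a range that lies wholly above that of the 10 mitochondrially encoded members, -0.88 to -0.34. The called genes were the accessory subunit Ndufa9 (162 ± 8.75 CPM in D1 and 187 ± 12 CPM in A2a, SD, n = 8; log2 difference -0.21 ± 0.06, edgeR adjusted p = 0.0143) and Ndufv1, which carries the NADH binding site (355 ± 14.4 and 403 ± 22.2 CPM; -0.18 ± 0.05, edgeR adjusted p = 0.0173). Leaving out 1 library in turn kept Ndufa9 and ended the call of Ndufv1 in 1 of 16 cases.

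**Figure D2:**
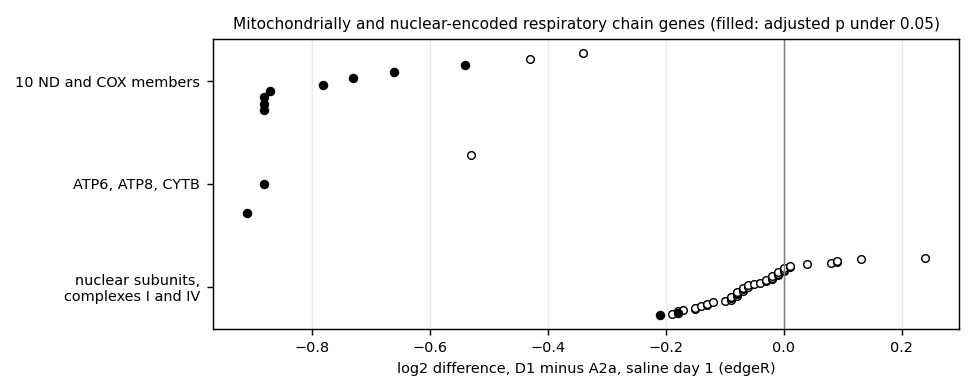
Log2 difference of D1 minus A2a in saline animals for the 10 members, for ATP6, ATP8 and CYTB, and for 45 listed nuclear subunits of complexes I and IV; 1 point per gene, filled where the edgeR adjusted p was under 0.05, with points spread vertically only to keep them apart. The 10 members lie between -0.88 and -0.34 and the nuclear subunits between -0.21 and 0.24.

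Genes that act on mitochondrial transcripts, biogenesis or assembly gave 1 call per list, against the same 8.13% of all genes. Of 25 listed genes of mitochondrial transcription and RNA handling, 1 was called in saline animals: Lrpprc, whose product binds and stabilizes mitochondrial messengers, was lower in D1 (89.4 ± 8.48 CPM) than in A2a libraries (114 ± 7.59 CPM, SD, n = 8), a log2 difference of -0.34 ± 0.06 (edgeR adjusted p = 0.000124). Of 8 regulators of mitochondrial biogenesis, Esrra, the gene of the estrogen-related receptor alpha, was called at -0.32 ± 0.09 (90.9 ± 11.8 against 113 ± 7.35 CPM, edgeR adjusted p = 0.0143). Of 25 assembly factors of complexes I and IV, Ndufaf7, a methyltransferase that acts on a complex I subunit, was called at -0.24 ± 0.07 (edgeR adjusted p = 0.016), and without either of 2 libraries it was not. The medians of these lists were -0.04, -0.10 and -0.03.

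In the same contrast on cocaine day 1, 9 of the 10 differences were nearer to 0 than in saline animals, and that of ND6 was farther from 0. The A2a libraries of that day also belong to the comparison that chose the genes, so these tests are not independent of the choice and ND4 is left out of them. All 10 members lay below 0, with a median of -0.41 and a range of -0.81 to -0.16. Of the 9 other than ND4, 2 were called, both lower, against 11.1% of all genes called and 5.56% called lower. ND2 ran from 1408 through 2019.5 to 3666 CPM in D1 and from 2412 through 2951 to 5263 CPM in A2a libraries, with 7 of 8 D1 libraries below all A2a libraries, and differed by -0.59 ± 0.18 (edgeR adjusted p = 0.0268). The call was lost without any of 5 single libraries (edgeR adjusted p of 0.0517 to 0.1): D1 cocaine day 1 replicates 4, 6 and 8 and A2a cocaine day 1 replicates 1 and 2. With only the compared groups in the fit, ND2 (edgeR adjusted p = 0.0643) and ND6 (edgeR adjusted p = 0.117) both lost their calls, and ND3 was called in their place (-0.38, edgeR adjusted p = 0.0245).

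ND6 ran from 3.13 through 4.49 to 5.68 CPM in D1 and from 4.31 through 5.29 to 22.3 CPM in A2a libraries of cocaine day 1, with a log2 difference of -0.81 ± 0.23 (edgeR adjusted p = 0.013). The highest A2a value belonged to replicate 7, the library of 5.3 M counts, and the next, 12.5 CPM, to replicate 1. The other 6 A2a libraries lay at 6.07 CPM or below, within or close to the D1 range. Without replicate 7 the difference was -0.46 (edgeR adjusted p = 0.109) and without replicate 1 it was -0.67 (edgeR adjusted p = 0.054), so the call rests on these 2 libraries. Like the other tests of members with these A2a libraries, that of ND6 is not independent of the choice of the genes.

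The remaining members of complex IV on cocaine day 1 were COX2 at -0.51 ± 0.18, COX3 at -0.45 ± 0.17 and COX1 at -0.32 ± 0.15 (edgeR adjusted p of 0.0602, 0.0828 and 0.179). Of complex I, ND1 was at -0.44 ± 0.16, ND3 at -0.37 ± 0.14, ND5 at -0.36 ± 0.16 and ND4L at -0.16 ± 0.16 (edgeR adjusted p of 0.0619, 0.0828, 0.16 and 0.629). ND4 differed by -0.17. As said above, the tests of members in these libraries, including those with a library left out, are not independent of the choice of the genes. Without D1 cocaine day 1 replicate 1, the D1 library with the highest sum, 8 members were called, ND4 not among them, and without A2a cocaine day 1 replicate 1, the A2a library with the highest sum, 0 were. Within middle numbers 89, 91 and 92, all 10 members lay below 0, with medians of -0.36, -0.55 and -0.42. These hold 4 D1 against 5 A2a libraries, 2 against 1 and 2 against 2. Whether the D1 against A2a difference itself differed between saline and cocaine animals was not tested.

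Around these genes, ATP8 (-0.72 ± 0.23, edgeR adjusted p = 0.0347) and ATP6 (-0.56 ± 0.18, edgeR adjusted p = 0.0353) were lower in D1 on cocaine day 1, and both lost the call in 7 or 8 of 16 single-library omissions. CYTB was at -0.51 ± 0.18 (edgeR adjusted p = 0.0564). Of the 45 nuclear subunits, only Ndufa9 was called (164 ± 8.36 against 186 ± 22.8 CPM; -0.19 ± 0.06, edgeR adjusted p = 0.0268), and 3 of 16 omissions ended that call. Lrpprc was again lower (95.8 ± 11.3 against 112 ± 10.9 CPM; -0.22 ± 0.06, edgeR adjusted p = 0.0148, and 0.0547 without A2a cocaine day 1 replicate 1), as was Acad9, a complex I assembly factor (-0.22 ± 0.05, edgeR adjusted p = 0.0031). None of the 8 biogenesis regulators was called, nor was any marker of astrocytes, microglia, oligodendrocytes or endothelial cells.

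On cocaine day 40 the D1 and A2a values are given without a test. Here 9 of 10 members lay below 0 in D1 relative to A2a, with a median of -0.36, and ND6 was at 0.01. ND4 stood lowest at -0.79, with 7 of 8 D1 libraries below all A2a libraries. The other members ran from -0.40 for ND2 and ND5 to -0.15 for ND3. In the same comparison 7 of 10 microglia markers were called lower in D1 (edgeR), where 10.3% of all genes were, with a median of -0.84 and summed levels of 160.4 to 276 CPM in D1 and 238 to 536 CPM in A2a libraries, and 0 astrocyte, oligodendrocyte or endothelial markers were called. The part of these markers' cells in the members' values was not tested. These libraries all carry different middle numbers in the 2 genotypes, so the number and the neuron type cannot be told apart on that day.

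**Figure D3:**
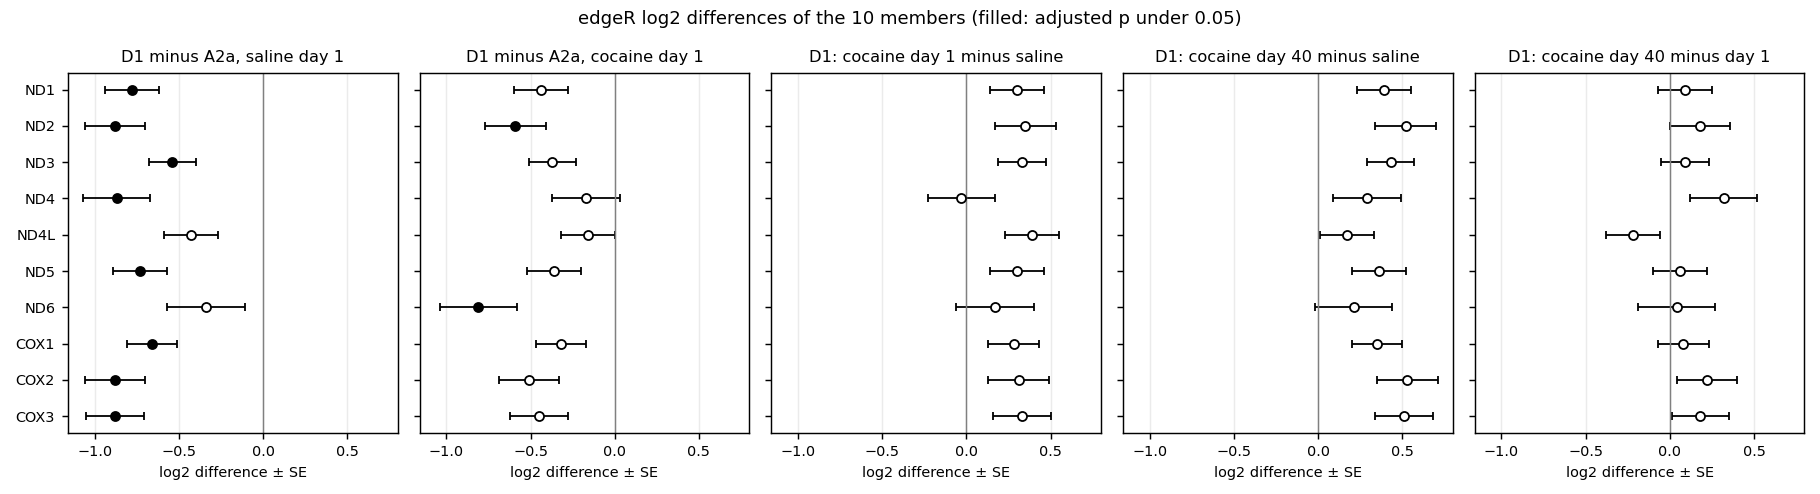
Log2 differences ± SE of the 10 members from the edgeR fit in 5 comparisons of 8 against 8 libraries, filled where the adjusted p was under 0.05. In saline animals 8 of 10 D1 minus A2a differences are filled, on cocaine day 1 it is ND2 and ND6, and none is filled in the comparisons within D1 neurons. The D1 minus A2a tests on cocaine day 1 are not independent of the choice of the genes.

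Within D1 neurons, the comparisons asked how the transcripts stood after cocaine on each day. No member was called in any of the 3. Cocaine day 1 against saline had 9 of 10 members above 0 with a median log2 difference of 0.30 and a range of -0.03 to 0.39, and 0 were called (edgeR adjusted p = 1 for each; 0 with DESeq2; 2 at unadjusted p under 0.05). The background was 0% of all genes called and 363 at unadjusted p under 0.05. ND4L had the largest value, with 30.7, 44 and 70 CPM as lowest, median and highest in saline and 46.9, 52.6 and 98.6 CPM after cocaine, a difference of 0.39 ± 0.16. ND4 had the smallest, with medians of 24 and 25.6 CPM and a difference of -0.03 ± 0.20. By middle number, the median over the members was 0.55 (number 89), 0.54 (number 91) and -0.08 (number 92), so the direction did not hold in all 3.

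On cocaine day 40 against saline, all 10 members were above 0 in D1 neurons, with a median of 0.38 and a range of 0.17 to 0.53. None passed (edgeR adjusted p of 0.094 to 0.697), against 2.61% of all genes called, and 7 of 10 were at unadjusted p under 0.05, as were 2520 of all 15580 genes. The nearest to the threshold was ND3, with 97.2, 148 and 199.5 CPM in saline and 104, 191 and 298 CPM on day 40, a difference of 0.43 ± 0.14 (edgeR adjusted p = 0.094). DESeq2 called ND3 (0.43, adjusted p = 0.0358). COX2 was at 0.53 ± 0.18 with 3 of 8 day 40 libraries above every saline library, and ND2 at 0.52 ± 0.18 with 2 (edgeR adjusted p = 0.113 for both). The groups overlapped for every member, and the number of members called rose to 2 without D1 saline replicate 4 and to 1 without D1 cocaine day 40 replicate 7.

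On cocaine day 40 against cocaine day 1 in D1 neurons, the members lay between -0.22 (ND4L) and 0.32 (ND4) with a median of 0.09. None passed (edgeR adjusted p of 0.473 to 0.964; 0 with DESeq2; 0 at unadjusted p under 0.05), against 1.85% of all genes called. ND4 had a lowest value of 18, a median of 25.6 and a highest of 46.1 CPM on day 1 and 17.7, 37.5 and 46 CPM on day 40. The ranges were almost the same, with 0 of the 8 day 40 libraries above every day 1 library and 1 below every day 1 library. These 3 comparisons share groups, so their values are not independent of each other.

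Some nuclear genes were called within D1 neurons, in small numbers. On day 40 against saline, 2.61% of all genes were called. Of the lists, 2 of 45 nuclear subunits, 1 of 25 assembly factors and 1 of 8 biogenesis regulators were. On day 40 against day 1, 1 of 45 nuclear subunits was called, where 1.85% of all genes were. Whether these counts exceed those of all genes was not tested. Ndufs7, an iron-sulfur subunit of complex I, was higher on day 40 (305 ± 17.5 CPM) than in saline animals (253 ± 17.3 CPM; 0.27 ± 0.06, edgeR adjusted p = 0.00737) and than on day 1 (260 ± 15.3 CPM; 0.23 ± 0.06, edgeR adjusted p = 0.0291, lost in 4 of 16 omissions). Ndufa8, an accessory subunit, was higher on day 40 than in saline animals (414 ± 26.8 against 361 ± 13.5 CPM; 0.20 ± 0.06, edgeR adjusted p = 0.0424), a call that 10 of 16 omissions ended. All 33 complex I subunits tested were above 0 on day 40 against saline with a median of 0.14, and 10 of 12 complex IV subunits were, with a median of 0.15. Of all genes, 48.2% were above 0 in that comparison. Tmem126b, a complex I assembly factor, was higher (35 ± 2.23 against 29.5 ± 1.72 CPM; 0.24 ± 0.07, edgeR adjusted p = 0.0413, lost in 8 of 16 omissions), and Yy1, a transcription factor, was lower (16.3 ± 2 against 21.2 ± 1.15 CPM; -0.39 ± 0.10, edgeR adjusted p = 0.0174). Of the 25 genes of mitochondrial transcription and RNA handling, 0 were called in the comparisons within D1 neurons, and on cocaine day 1 against saline no gene of these lists was.

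Microglia markers moved with day 40 in the same libraries. On day 40, edgeR called 4 of 10 lower than in saline animals, as it did 239 of all 15580 genes. Against day 1 it called 3 of 10 lower, as it did 180 of all 15580 genes. In each comparison only 1 of 10 lay above 0, with median log2 differences of -0.8 and -0.76. The summed level ran from 160.4 to 276 CPM on day 40 and from 165 to 517 CPM on day 1. In saline animals it ran from 218 to 584 CPM. Cd68, a lysosomal protein of phagocytes, fell from 9.45 ± 4.62 CPM in saline animals to 3.84 ± 0.938 CPM (log2 difference -1.30 ± 0.30, edgeR adjusted p = 0.0123). No astrocyte, oligodendrocyte or endothelial marker was called, and no measured marker was at 0 throughout a group. The part of these cells in the values of the mitochondrial transcripts was not tested.

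Within A2a neurons, cocaine day 1 against saline left most members close to 0. These cocaine libraries again belong to the comparison that chose the genes, and ND4 is given below without a test. Of the 9 other members, 0 were called (edgeR; 0 with DESeq2; ND6 alone at unadjusted p under 0.05), against 0.0706% of all genes. The 8 members other than ND4 and ND6 lay between -0.10 (COX3) and 0.16 (ND3), and the median over all 10 was -0.05. ND6 was at 0.65 ± 0.23 (edgeR adjusted p = 0.579), with the high values of replicates 7 and 1 given above.

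ND4 had the lowest difference of the 10 in these libraries. In A2a saline animals its 8 values were 45.27, 44.88, 37.37, 81.03, 56.71, 52.15, 42.17 and 56.11 CPM for replicates 1 to 8. On cocaine day 1 they were 28.52, 32.55, 28.96, 35.97, 32.11, 30.15, 30.13 and 32.23 CPM. All 8 cocaine libraries lay below all 8 saline libraries, a pattern that 0.0128% of all genes, 2 of 15580, had in this direction. The log2 difference was -0.73, and no p is given because the cocaine day 1 libraries are those of the comparison that chose the genes. Within middle number 89 (5 cocaine against 4 saline libraries) it was -0.60. It was -0.63 within number 91 (1 against 3) and -0.85 within number 92 (2 against 1), each with a single library on one side.

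On cocaine day 40 the 8 A2a libraries held 71.93, 66.84, 68.08, 64.97, 53.82, 59.15, 50.55 and 45.01 CPM of ND4. All lay above every cocaine day 1 library, which 0.0449% of all genes did, and they overlapped with the saline libraries over most of their range. The log2 difference was 0.94 against cocaine day 1, the comparison used to choose the genes, and 0.21 against saline. By the choice itself, 1 of 10 members, ND4, was past the threshold in the first of these, where 0.263% of all genes were, and nothing is read from that count. ND6, at -0.78, was the nearest outside it, while the other 8 lay between -0.13 (ND3) and 0.12 (COX3). Against saline, the 10 members ran from -0.13 to 0.21 on day 40.

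The level of ND4 by group mean therefore ran from D1 cocaine day 1 (27.9 ± 9.37 CPM, SD, n = 8) and D1 saline (28.4 ± 12.5) through A2a cocaine day 1 (31.3 ± 2.41), D1 cocaine day 40 (34.8 ± 10.3) and A2a saline (52 ± 13.6) to A2a cocaine day 40 (60 ± 9.5). Each pair of neighbours in this order overlapped. The A2a cocaine day 1 group was also the tightest, with a coefficient of variation of 7.7% where the other groups had 15.8% to 44%. In that group the coefficient of the other 9 members ran from 13.6% (ND3) to 78.5% (ND6), with 25.9% for ND4L, and that of the sum was 24.8%.

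**Figure D4:**
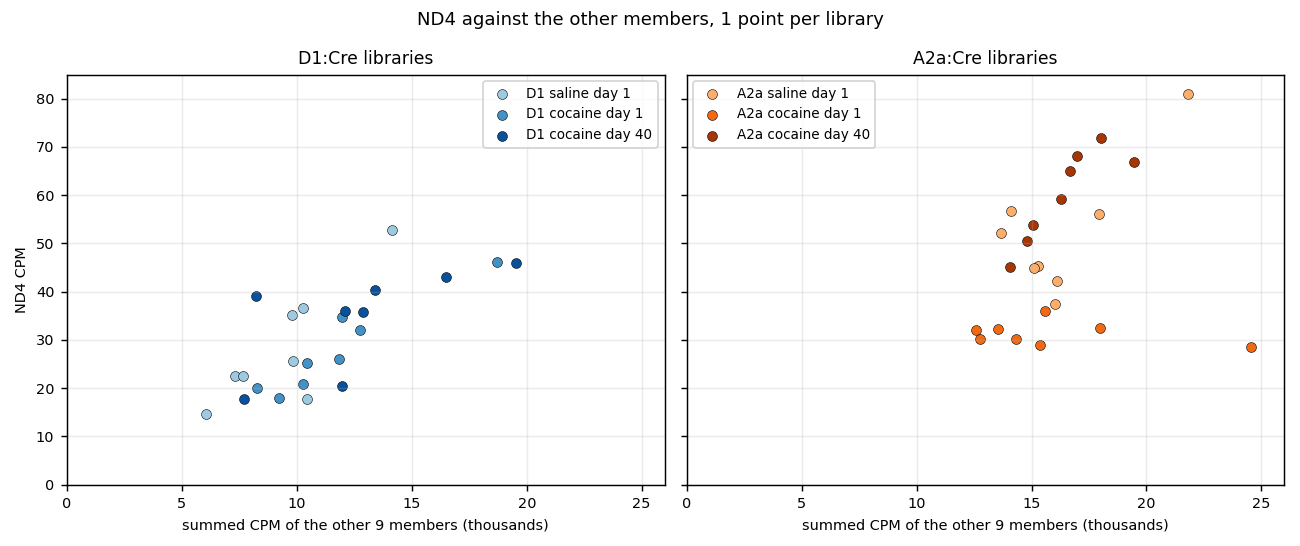
ND4 in CPM against the summed CPM of the other 9 members (axis in units of 1000 CPM), 1 point per library, for D1:Cre libraries (left) and A2a:Cre libraries (right) on the same linear scales. In the right panel the A2a cocaine day 1 libraries form a flat band between 28.5 and 36 CPM of ND4, below the saline and day 40 libraries.

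Set against the other members, ND4 correlated positively with them in 5 of the 6 groups. Pearson r between ND4 and the sum of the others, over 8 libraries of a group, was 0.80 in D1 saline, 0.93 in D1 cocaine day 1, 0.63 in D1 cocaine day 40, 0.60 in A2a saline and 0.90 in A2a cocaine day 40 libraries. In A2a cocaine day 1 libraries it was -0.30, while ND4L had an r of 0.90 there. In each of the 2 A2a day 1 groups, saline and cocaine, the sign of the r of ND4 rests on 1 library. Without A2a saline replicate 4 the r of ND4 in saline libraries was -0.17. Without A2a cocaine day 1 replicate 1 the r of ND4 was 0.25, while that of ND4L was 0.59 and kept its sign. These are descriptions of libraries that share their scaling, and no p is given. Replicate 1 of that group had the highest sum of all 48 libraries, 24574 CPM, and the lowest ND4 value of its group, 28.52 CPM.

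A ratio of ND4 to ND4L counts within a library does not depend on library scaling, and both genes lie on a single messenger. Their counts are uncertain, as said above: ND4, with the longer frame, had a mean of 39.1 CPM against 57.2 CPM for ND4L. Whether the ratio reads out that messenger or how reads were assigned was not tested. In A2a libraries the mean ratio was 0.855 ± 0.187 (SD, n = 8) in saline animals, 0.498 ± 0.109 on cocaine day 1 and 0.993 ± 0.16 on cocaine day 40. The cocaine day 1 libraries, from 0.269 to 0.632, lay below all saline libraries, from 0.662 to 1.16, and below all day 40 libraries, from 0.778 to 1.23. The differences in mean log2 ratio were -0.79 for cocaine day 1 against saline, 1.02 for day 40 against day 1 and 0.23 for day 40 against saline, all given with no p for the reason stated above.

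In D1 libraries the ratio had its lowest mean on cocaine day 1 too. These libraries had no part in the choice of the genes, but the ratio was chosen with earlier results of these data known. The set of 4 comparisons used for adjustment below was also chosen after seeing the data. The p values of the ratio are therefore exploratory. From saline to cocaine day 1 in D1 libraries, the log2 difference was -0.03 for ND4 and 0.39 for ND4L. In A2a libraries it was -0.73 for ND4 and 0.12 for ND4L. The D1 ratio was 0.628 ± 0.182 in saline animals, 0.467 ± 0.0582 on cocaine day 1 and 0.701 ± 0.207 on cocaine day 40 (SD, n = 8). The lowest, median and highest values were 0.354, 0.675 and 0.858 in saline, 0.383, 0.473 and 0.542 on day 1, and 0.418, 0.696 and 1.08 on day 40. On day 40 against day 1 the log2 ratio was higher by 0.54 (exact permutation test, two-sided, p = 0.00622, adjusted p = 0.0249 over the 4 comparisons that hold no A2a cocaine library), with 6 of 8 day 40 libraries above every day 1 library. In this comparison ND4 was at 0.32 and ND4L at -0.22, neither of them called (edgeR adjusted p = 0.473 and 0.555). Here too day 40 and the middle number cannot be separated. With single libraries left out the difference was 0.44 to 0.64, and the adjusted p rose above 0.05 without D1 cocaine day 1 replicate 3 (0.051) or 6 (0.0522), in 2 of 16 cases. Over all 6 ratio comparisons computed, the adjusted p of this permutation test was 0.0187. That set holds the A2a cocaine day 1 libraries, which the choice of the genes used, so nothing is read from this value.

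For D1 cocaine day 1 against saline the difference was -0.38 (exact permutation p = 0.0494, adjusted p = 0.0659 over the same 4), which did not pass, though it did without saline replicate 5 (-0.45) or 8 (-0.49). On day 40 against saline it was 0.16 (exact permutation p = 0.469, adjusted p = 0.469). D1 against A2a in saline animals gave -0.48 (exact permutation p = 0.0295, adjusted p = 0.0591), and 5 single-library omissions brought it under the threshold. With 8 libraries against 8, the smallest p this test can give is 0.000155. The D1 and A2a libraries of cocaine day 1 differed by -0.07 and those of day 40 by -0.54, for which no p is given.

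**Figure D5:**
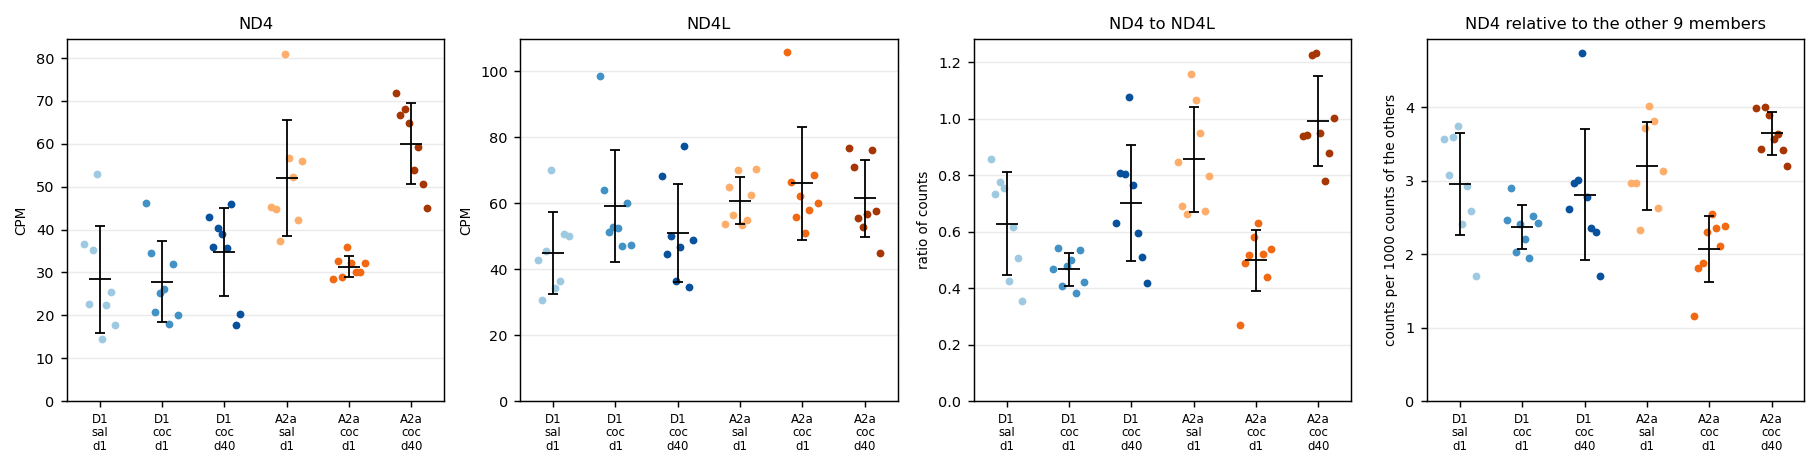
ND4 and ND4L in CPM, the ratio of their counts, and ND4 counts per 1000 counts of the other 9 members, 1 point per library with mean ± SD (n = 8), on axes that start at 0. ND4L group means lie between 45 and 66 CPM, while the ND4 to ND4L ratio is at its lowest means, 0.467 and 0.498, in the D1 and A2a cocaine day 1 groups. In D1 libraries, mean ND4 was 28.4 CPM in saline and 27.9 CPM on cocaine day 1, and mean ND4L 45 and 59.2 CPM.

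Against all 9 other members ND4 again had its lowest means on cocaine day 1. It stood at 2.95 ± 0.697 counts per 1000 counts of the others in D1 saline libraries, 2.36 ± 0.3 on cocaine day 1 and 2.81 ± 0.889 on cocaine day 40 (SD, n = 8). In A2a libraries the values were 3.19 ± 0.599, 2.07 ± 0.447 and 3.64 ± 0.296. The A2a cocaine day 1 libraries, 1.16 to 2.55, lay below all day 40 libraries, 3.2 to 4.01, and overlapped with the saline libraries, 2.33 to 4.02.

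The nuclear respiratory chain genes gave no call in the tested comparison within A2a neurons. In cocaine day 1 against saline, 0 of the 45 nuclear subunits were called, with medians of 0.05 for complex I and 0.10 for complex IV. Of all genes, 0.0706% were called there, so this count does not set the nuclear subunits apart from other genes. On day 40 against day 1, described without a test, the medians were -0.03 and -0.06. In the same libraries the summed microglia markers ran from 225 to 619.7 CPM in saline animals, from 164 to 572 CPM on cocaine day 1 and from 238 to 536 CPM on day 40, and oligodendrocyte markers from 3680.1 to 5564, from 3645 to 5403 and from 3641 to 6024 CPM. The A2a markers summed to 9203 to 12094, 9372 to 12858 and 8239 to 14246 CPM. None of these lists separated the cocaine day 1 libraries from the others, and their part in the ND4 values was not tested.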

How the data were processed

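The deposited table holds raw read counts per gene made by the authors, with no normalization, for 48 pull-down libraries. The genome build was Rnor_6.0 and the tools included STAR, SAMtools, Trimmomatic and bcl2fastq, per the submitters' processing notes. The sources used here give no tool version, counter, annotation or strand setting. Groups were taken from the sample titles. Genes were kept with edgeR's expression filter at a minimum count of 10, which left 15580 of 32883, and 12500 identifiers had no name. Counts were scaled by TMM (edgeR 4.0.16, R 4.3.3), and the 48 libraries entered 1 robust quasi-likelihood model with 6 group terms, adjusted over all genes (Benjamini-Hochberg, threshold 0.05). SE is the log2 difference divided by the square root of F. Dispersion was shared by all groups. The ratio of ND4 to ND4L counts was tested by exact permutation of libraries, two-sided, adjusted over 6 comparisons and, as chosen after seeing the data and printed here, over the 4 that hold no A2a cocaine library. The steps were tested on simulated data.

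The members, the gene lists (nuclear subunits, RNA handling, biogenesis, assembly, cell type markers) and the ratio were chosen with earlier results of these data known. Named non-members were ATP6, ATP8 and CYTB, up to 3 called genes per list and comparison with the largest difference, and the 5 named genes most like ND4 or the sum by Pearson r of log2 CPM (prior count 2) after removal of group means. Of the 168 library pairs within groups, 0 were identical, and the lowest chi-square per gene was 10.3. A total of 24.5 M counts or more in 47 libraries puts ND4 at 499 counts or more there. Same-numbered libraries did not deviate together (correlations of -0.18 to 0.32), so replicate numbers were not used as pairs. Alternatives were another scaling, DESeq2 1.42.0, no filter, fits of the compared groups alone, a replicate block, numbers of the description as covariates, and omission of each library.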

Additional observations from a re-analysis of the deposited data

Results flagged for a closer look

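Within each group of 8 libraries, the 13 measures described here were looked at for a library far from the others, by Dixon's gap test at its 95% critical value, in 78 combinations of group and measure. Most of these measures rise and fall together, so the combinations are not separate looks. There were 16 such outlying values, where chance gives about 1 in 20 for a single look. Of these, 7 belonged to D1 cocaine day 1 replicate 1, the highest library of its group: ND1 at 2777 CPM (next 1948), ND2 at 3666, ND4L at 98.6, COX1 at 5164, COX2 at 2488, COX3 at 2761, and the sum of the 10 members at 18737 CPM (next 12786). Another 6 belonged to A2a cocaine day 1 replicate 1: ND4L at 106 CPM, ND5 at 1842, COX1 at 6441, COX2 at 3645, COX3 at 3458, and the sum at 24574 CPM (next 18032). ND4 was at 46.13 CPM in the first of these libraries, the highest of its group, and at 28.52 CPM in the other, the lowest of its group.

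The other 3 were single values. ND6 stood at 22.3 CPM in A2a cocaine day 1 replicate 7, the library with 5.3 M counts (next 12.5). ND4 stood at 81 CPM in A2a saline replicate 4 (next 56.7). ND4 per 1000 counts of the other members stood at 4.74 in D1 cocaine day 40 replicate 4 (next 3.01).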

How the results depend on the processing

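Members called in D1 against A2a saline stayed at 8 or 9 under every setting and every omitted library, 8 with the replicate block, where all genes called went from 1266 to 1329. The counts of members called in D1 and A2a cocaine day 1 against saline, and in D1 day 40 against day 1, were 0 under every setting. Members called in D1 day 40 against saline went from 0 to 1 with DESeq2 (0 to 2 with libraries left out). In D1 against A2a cocaine day 1 they went from 2 to 5 with DESeq2, 1 with only the groups compared (ND3, not ND2 or ND6) and 5 with the first number of the description as a covariate (0 to 8 with libraries left out). All genes called in A2a cocaine day 1 against saline went from 11 to 1 with DESeq2, to 27 with no filter and to 0 with only the groups compared, with the replicate block and with either number of the description (0 to 17 left out). In D1 day 40 against day 1 they went from 289 to 522 with DESeq2 and 136 with only the groups compared (157 to 412), and in D1 day 40 against saline from 406 to 639 with DESeq2 (266 to 548). Nuclear subunits called in D1 day 40 against saline went from 2 to 6 with DESeq2 and with the replicate block, 11 with only the groups compared, and 1 with no filter or the first number. In D1 against A2a cocaine day 1 they went from 1 to 0 with only the groups compared, 3 with DESeq2, and 2 with the other scaling or either number. With libraries left out, the difference in ND4 to ND4L log2 ratio lay between -0.49 and -0.31 for D1 day 1 against saline, and between -0.55 and -0.37 for D1 against A2a saline. Scaling without the mitochondrially encoded genes changed no call of a member. Of 612 differences of single genes under alternative settings, 2 uncalled ones changed sign, as did 21 of 1280 with a library left out, and 0 called ones did. The replicate numbers did not pair the libraries, and the block changed no other call of a count of members. Chosen after seeing the data, adjustment of the ratio tests over 4 comparisons instead of 6 changed no call with all libraries. Why these counts moved was not tested. ND4 and ND6 are limited by counts, at 158 and 92 in their lowest libraries.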

Other observations

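ATP8, which encodes a small subunit of the ATP synthase, had its widest spread in A2a cocaine day 1 libraries, as ND6 did. This was seen after its values were known. The highest library differed: it was replicate 7 for ND6 (22.31 CPM, with 81.23 CPM of ATP8) and replicate 1 for ATP8 (with 12.47 CPM of ND6). In A2a libraries of cocaine day 1, ATP8 ran from 64.1 through a median of 85.9 to 281 CPM, with 280.8 CPM in replicate 1, against 53.5, 78.9 and 88.7 CPM in saline animals. The log2 difference was 0.57 ± 0.23 (SE, n = 8 against 8, edgeR adjusted p = 0.701). On day 40 it ran from 46 through 64.6 to 77.1 CPM. Replicate 1 thus held the highest ATP8 and ND4L values of all 8 cocaine day 1 A2a libraries together with the lowest ND4 value.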
